A study of Sorghum bicolor with 24 samples.

Results

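The 6 gene models described here are transcription factors that the study named as raised by both abscisic acid (ABA) and polyethylene glycol (PEG) in roots and in shoots of sorghum. The deposited tables hold 34145 gene models, and all 6 members were among the 22667 models with enough reads to be tested. They comprise 1 bZIP model (Sb04g034190), 2 C3H zinc finger models (Sb09g006050 and Sb03g003110), 2 heat shock factor (HSF) models (Sb03g033750 and Sb10g021800) and 1 MYB-related model (Sb03g003100). Seedlings of Sorghum bicolor line BTx623, grown in Hoagland's solution, were treated from day 8 for 27 h and harvested at 9 days. The groups were roots and shoots given 20 μM ABA or the NaOH solution that served as its control, and roots and shoots given 20% PEG-8000, which lowers the water potential of the medium, or water (H2O) as its control. Each of the 8 groups had 3 libraries, 1 from each of 3 hydroponic experiments, with the roots and shoots of a replicate number taken from the same plants and RNA pooled over plants. Whole roots and whole shoots were sequenced, so the cell types within them were not resolved, and more cells that express a gene cannot be told apart from more transcript per cell.

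ABA is the hormone that rises in plants under water deficit. It is bound by soluble receptors that inhibit protein phosphatases and so release SnRK2 kinases, which phosphorylate bZIP factors of the AREB/ABF group, and these bind ABA-responsive elements in promoters. HSFs bind heat shock elements and are best known for driving chaperone genes. C3H proteins carry CCCH zinc fingers, and several in Arabidopsis act in stress responses. MYB-related proteins carry fewer MYB repeats than the main plant MYB family. Sb04g034190 is the sorghum homolog of Arabidopsis ABF2, an AREB/ABF bZIP activator of ABA-responsive genes. Both C3H models are homologs of Arabidopsis OZF1, a zinc finger protein of oxidative stress tolerance. Sb03g033750 is annotated as similar to a putative heat shock transcription factor and Sb03g003100 as similar to a putative MCB2 protein.

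Between 12891739 and 22840516 reads per library fell on gene models. As a check of the tissue labels, the summed RPKM of 8 models annotated as chlorophyll a/b binding proteins or the small subunit of Rubisco was 4.42 to 28.2 in the 12 root libraries and 11380 to 35550 in the 12 shoot libraries. A set of 3 models annotated as nicotianamine synthases or a high affinity nitrate transporter did not separate the tissues, with sums of 108 to 231 in roots and 112 to 303 in shoots. Of the shoot list, 7 of 8 were called lower in ABA shoots (median log2 -1.39), 3 of 8 in PEG shoots (-0.997), 1 of 8 in PEG roots and 0 in ABA roots. Over all tested models, 4.01%, 2%, 1.45% and 8.21% were called lower in that order. Of the root list, 2 of 3 were called higher in ABA roots (5.44% of all tested models), and 1 of 3 lower in ABA shoots and in PEG shoots. Both lists were taken from the study's tables of responding genes. Those tables were chosen on these same libraries, so the counts are no independent evidence of a change. The part of these marker changes in the members' values was not tested. Some libraries stood apart for the members. Replicate 3 was the highest of its group for 5 of 6 members in NaOH roots and in H2O roots, and for 6 of 6 in PEG roots and in PEG shoots, while replicate 2 was the lowest for 6 of 6 in PEG roots and for 5 of 6 in NaOH roots and in NaOH shoots. In ABA roots it was replicate 3 that was the lowest for 5 of 6. Replicate 1 was the highest for 5 of 6 in ABA roots and in ABA shoots, and the lowest for 5 of 6 in H2O roots. Replicate 3 of every group and NaOH shoots replicate 2 were base-called with another software version (RTA 1.6, against 1.5 elsewhere), so version and replicate number largely cannot be told apart.

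The members lie on 4 chromosomes of the sbi1 assembly. Sb04g034190 spans chr4:64030238-64034302 with 1815 exon bases, Sb10g021800 spans chr10:48428314-48429829 with 903, and Sb03g033750 spans chr3:61998138-61999031 with 726. The C3H model Sb09g006050 spans chr9:8731871-8733975, and its exon length of 2105 bases equals its span. The other C3H model, Sb03g003110, is likewise without an intron, at chr3:3207828-3209693 with 1866 exon bases. The MYB-related Sb03g003100, at chr3:3188253-3189820 with 1201 exon bases, is the model directly before it.

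Without ABA or PEG, the members were expressed at low to moderate levels, and the order of their means differed between the tissues. In control roots the order of mean RPKM (a level scaled to exon length and library size) was the same in both controls. In NaOH roots it ran from Sb03g003110 at 21.9 ± 12.5 through Sb09g006050 at 13.7 ± 7.23, Sb04g034190 at 8.45 ± 0.921, Sb03g003100 at 4.85 ± 2.21 and Sb03g033750 at 3.79 ± 2.13 to Sb10g021800 at 2.02 ± 0.399 (SD, n = 3). In H2O roots the C3H pair again led, Sb03g003110 with 16.8 ± 0.915 and Sb09g006050 with 11.7 ± 2.52, and Sb10g021800 was last with 2.36 ± 0.642. In control shoots the MYB-related Sb03g003100 was first instead, at 14.8 ± 6.96 RPKM in NaOH shoots and 11.9 ± 5.64 in H2O shoots, and Sb10g021800 was again last, at 0.743 ± 0.139 and 0.701 ± 0.511. Among all tested models, Sb10g021800 stood at percentile 23.1 of the NaOH root levels and 17.4 of the NaOH shoot levels, and no member stood above percentile 73.9 in any control group.

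**Figure D1:**
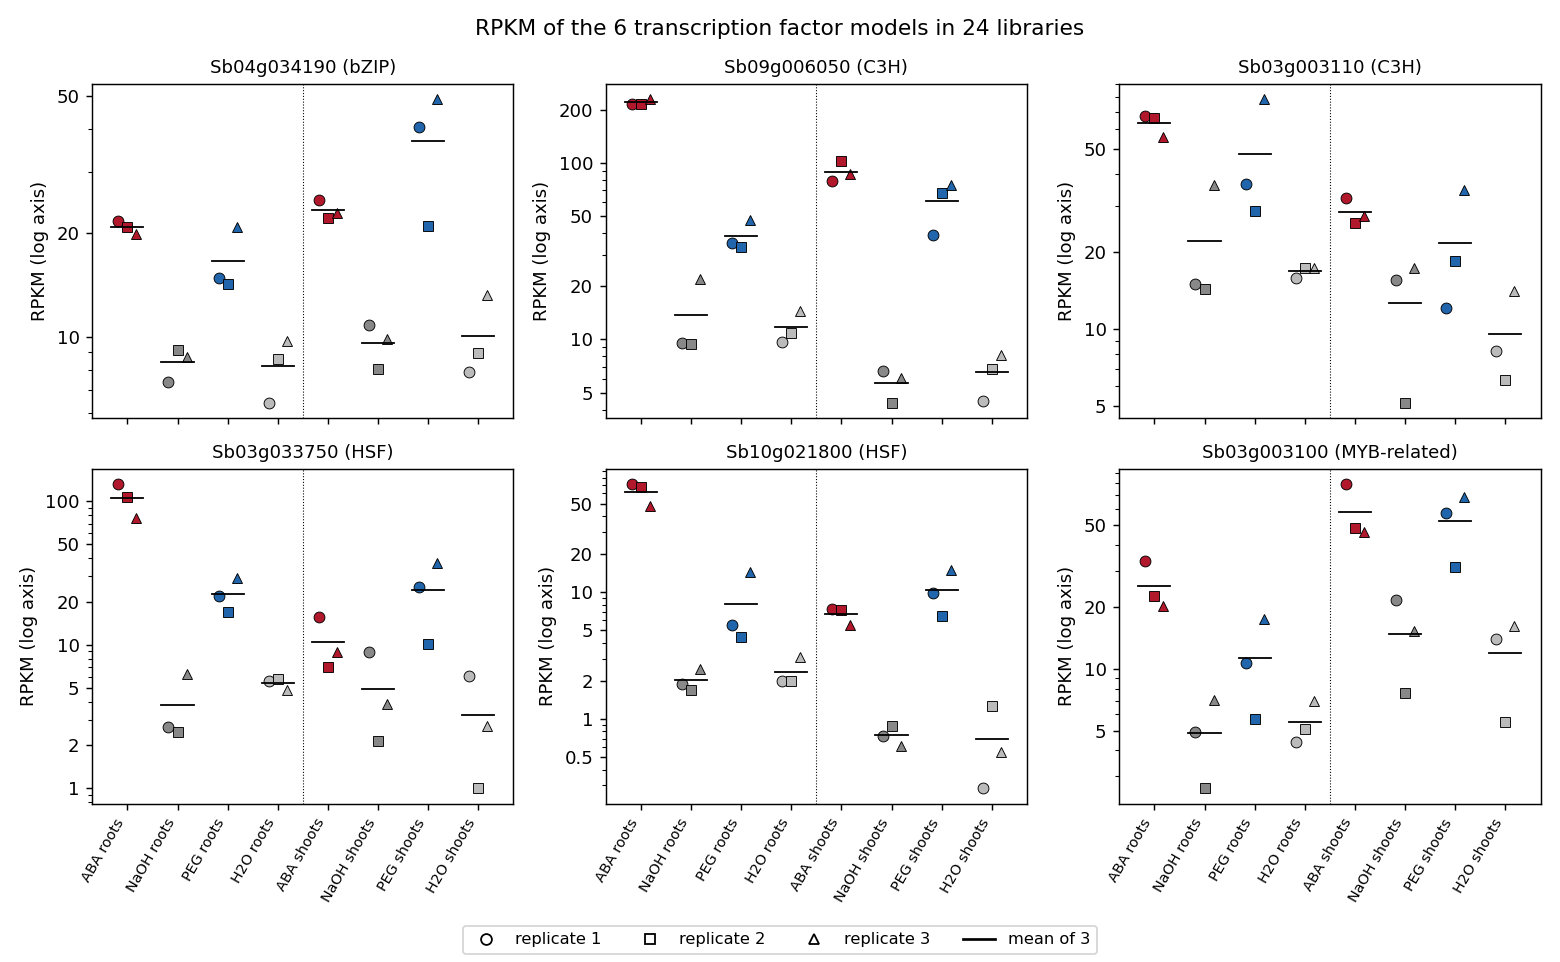
RPKM on a log axis of each member in the 24 libraries, with roots left and shoots right of the dotted line, symbols for replicates 1, 2 and 3, and a bar at the mean of 3. Sb09g006050 lies between 215 and 230.1 in ABA roots, far above its NaOH roots (9.40 to 22.0), whereas Sb03g003110 has a PEG root library at 78.6 and others at 36.8 and 28.8.

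Tested between tissues, Sb03g003100 was the member with the clearest basal difference. It had 4.90, 2.62 and 7.03 RPKM in NaOH roots, against 21.5, 7.62 and 15.2 in NaOH shoots. In the water control it had 4.42, 5.10 and 6.97 RPKM in roots, against 13.9, 5.48 and 16.2 in shoots, so the root and shoot libraries overlapped there and did not in NaOH. Between tissues, a call needed a log2 difference of 1 or more with an adjusted p below 0.05. Sb03g003100 passed in both controls, with log2 root minus shoot of -2.20 ± 0.50 (SE, adjusted p = 0.000679) in NaOH and -1.72 ± 0.50 (adjusted p = 0.0049) in H2O. The NaOH call held under all 16 alternatives, and the H2O call was lost on the RPKM scale (log2 -0.98, adjusted p = 0.0701) and without replicate 1 (adjusted p = 0.103), within a range of 0.000317 to 0.103.

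The HSF model Sb10g021800 went the other way, with 1.98, 2.00 and 3.10 RPKM in H2O roots against 0.285, 1.27 and 0.546 in H2O shoots, where these shoot values rest on 4, 19 and 11 reads. Its log2 difference of 1.2 ± 0.52 passed (adjusted p = 0.0485), but 8 of 16 alternatives lost it, with adjusted p of 0.000786 to 0.236. With the replicate number as a block the adjusted p was 0.0584, and the call was also lost without replicate 1 or 3, without H2O roots replicate 3, without H2O shoots replicate 1 or 3, with DESeq2 size factors and with no low-count filter. In NaOH it had 1.88, 1.71 and 2.47 RPKM in roots against 0.734, 0.887 and 0.609 in shoots (log2 0.82 ± 0.51, adjusted p = 0.165). Sb04g034190 was lower in roots than in shoots, by log2 -0.81 ± 0.26 in NaOH (adjusted p = 0.01) and -0.88 ± 0.26 in H2O (adjusted p = 0.00581), short of the cutoff of 1. So 1 of 6 members was called in NaOH and 2 of 6 in H2O, where 43.8% and 44% of all tested models were called in either direction. These differences depend on the scale: RPKM set the median model higher in roots than the fit did, by 0.63 in NaOH and 0.60 in H2O on the log2 scale, and the bZIP difference was then -0.17 and -0.27. On RPKM, Sb09g006050 (log2 1.16, adjusted p = 0.00202) and Sb10g021800 (log2 1.33, adjusted p = 0.00772) were called higher in NaOH roots than in NaOH shoots, besides Sb03g003100.

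The control solutions were not shown to differ for any member. NaOH over H2O differed by log2 -0.44 to 0.41 in roots and -0.16 to 0.59 in shoots, and 0 of 6 members were called in either tissue by edgeR or by DESeq2, with 0 at an unadjusted p under 0.05. Over all models, edgeR called 0% in roots and 0% in shoots, although 360 and 566 models had an unadjusted p under 0.05, and DESeq2 called 6 models in roots and 0 in shoots. The widest 95% intervals of the members were those of Sb03g033750, from -1.67 to 0.78 in roots and -0.68 to 1.87 in shoots, so differences of that size lie within what these libraries allow. Its difference was -1.08 in roots without NaOH roots replicate 3 and 1.37 in shoots without H2O shoots replicate 1.

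Under ABA and PEG, every member had a higher RPKM than its control in all 3 same-number pairs of libraries. That held in each of the 4 comparisons, which is 24 of 24 combinations. The study chose the members for a rise in these comparisons, so this count, the counts called and the folds that follow are a description. The share of all tested models with such pairs was not computed. On RPKM the median log2 change over all tested models was 0.04 in ABA roots, 0.085 in ABA shoots, 0.03 in PEG roots and 0.21 in PEG shoots. To be called in a treatment comparison, a model needed a log2 fold change of 1 or more, an adjusted p below 0.05 and, in either group, a median depth (aligned bases over exon length) of 2X or more. In ABA roots 6 of 6 members were called higher (5.44% of all tested models), in ABA shoots 4 of 6 (3.16%), in PEG roots 3 of 6 (2.03%) and in PEG shoots 5 of 6 (2.73%). All 3 treated libraries lay above all 3 controls for 6, 5, 5 and 5 members in that order of comparisons, as they did for 24.6%, 23.8%, 17.2% and 24.3% of all tested models. The median fitted log2 fold change of the members was 3.11 in ABA roots, 1.51 in ABA shoots, 1.59 in PEG roots and 2.32 in PEG shoots, with medians over all tested models of -0.02, -0.03, 0.00 and 0.00.

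The ratio of treated to control RPKM within replicate 1, all base-called with RTA 1.5, was 1.46 to 49.2 over the 24 combinations. Within replicate 3, all base-called with RTA 1.6, it was 1.53 to 27.4, and within replicate 2, where the NaOH shoot library alone had RTA 1.6, it was 1.12 to 43.6. The count in PEG roots was the least steady of the 4: it was 0 of 6 without replicate 1, 1 of 6 without replicate 3, 5 of 6 without PEG roots replicate 2 alone, and 1 of 6 without PEG roots replicate 3, H2O roots replicate 1 or H2O roots replicate 2 alone. Without replicate 1 the count in ABA shoots was 2 of 6 (Sb04g034190 and Sb03g003100 lost), and that in ABA roots was 4 of 6 (Sb03g003110 and Sb03g003100 lost). Sb03g003100 was also lost in ABA shoots without replicate 3, and in PEG shoots without replicate 1 or 3. Without replicate 3 the count in PEG shoots was 3 of 6.

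**Figure D2:**
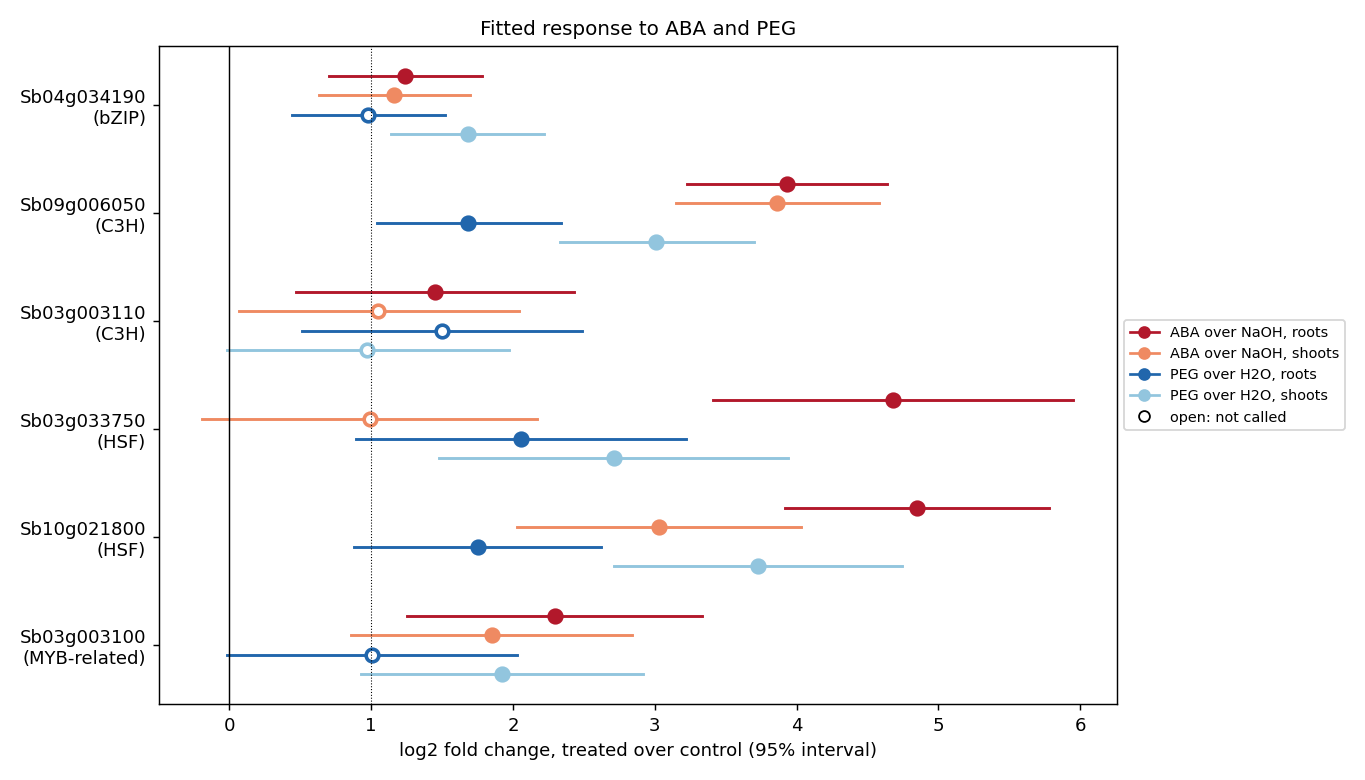
Fitted log2 fold changes of the members over their own control, with 95% intervals, filled where called, and a dotted line at a log2 fold change of 1. The HSF models and Sb09g006050 spread widely over the 4 comparisons, from 0.99 to 4.68, 1.75 to 4.85 and 1.69 to 3.93, while the bZIP model stays between 0.98 and 1.68.

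The bZIP model Sb04g034190 had 21.6, 20.8 and 19.8 RPKM in ABA roots, against 7.41, 9.18 and 8.75 in NaOH roots. ABA shoots had 24.8, 22.1 and 22.8 RPKM, against 10.8, 8.06 and 9.86 in NaOH shoots. The libraries of each ABA group lay close together and about the same distance above their controls, with fitted log2 fold changes of 1.24 ± 0.26 and 1.16 ± 0.26. It had 14.8, 14.3 and 20.8 RPKM in PEG roots, against 6.43, 8.61 and 9.71 in H2O roots. PEG shoots reached 40.7, 21.0 and 48.95 RPKM, its highest mean of the 8 groups at 36.9 ± 14.4, against 7.92, 8.96 and 13.2 in H2O shoots. No group overlapped its control. The order of its response was PEG shoots (log2 1.68 ± 0.26), ABA roots, ABA shoots and PEG roots (0.98 ± 0.26), and the last was not called because the fold fell just short of 2 while its adjusted p was 0.0212. It was called in 6 of 19 alternatives (limma on RPKM, the common-dispersion exact test, and without replicate 2, PEG roots replicate 1 or 2, or H2O roots replicate 3), with adjusted p of 0.00131 to 0.297.

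The C3H model Sb09g006050 had the highest mean RPKM of the members under both treatments, except in PEG roots. In PEG shoots its lead was within the spread, at 60.4 ± 18.7 against 52.4 ± 19.1 for Sb03g003100 (SD), which was the higher in replicate 1. Sb09g006050 had 216, 215 and 230.1 RPKM in ABA roots, against 9.57, 9.40 and 22.0 in NaOH roots. In ABA shoots it had 78.6, 103 and 86.2 RPKM, against 6.58, 4.37 and 6.05 in NaOH shoots. Both ABA responses were of nearly the same size on the log2 scale, 3.93 ± 0.34 in roots and 3.87 ± 0.34 in shoots. It had 35.0, 33.1 and 47.2 RPKM in PEG roots, against 9.72, 10.8 and 14.5 in H2O roots. In PEG shoots it had 39.1, 67.7 and 74.4 RPKM, against 4.49, 6.80 and 8.19 in H2O shoots. None of these groups overlapped their control, and the fitted log2 fold changes with PEG were 1.69 ± 0.31 in roots and 3.01 ± 0.33 in shoots. Its level in ABA roots was at percentile 98.3 of all tested models.

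The other C3H model, Sb03g003110, rose by less and varied more between replicates. It had 67.4, 66.2 and 55.8 RPKM in ABA roots, against 15.0, 14.3 and 36.4 in NaOH roots. NaOH roots replicate 3 lay far above the other NaOH root libraries, and without it the fitted log2 fold change was 2.06. ABA shoots had 32.3, 25.8 and 27.4 RPKM, against 15.5, 5.15 and 17.3 in NaOH shoots. It had 36.8, 28.8 and 78.6 RPKM in PEG roots, against 15.7, 17.3 and 17.3 in H2O roots, a clear gap with 1 very high PEG library. PEG shoots had 12.0, 18.4 and 34.6 RPKM, against 8.23, 6.35 and 14.0 in H2O shoots, and these groups overlapped. Its fitted log2 fold changes were 1.45 ± 0.47 in ABA roots, which was called, and 1.05 ± 0.47 in ABA shoots (adjusted p = 0.123), 1.5 ± 0.47 in PEG roots (adjusted p = 0.0581) and 0.97 ± 0.48 in PEG shoots (adjusted p = 0.173), which were not. With the replicate number as a block, ABA shoots (adjusted p = 0.0226) and PEG roots (adjusted p = 0.0201) were called too, within ranges over 19 alternatives of 4.89e-05 to 0.386 and 7.74e-08 to 0.346. The call in ABA roots was lost without replicate 1 or 2, and without any 1 of ABA roots replicates 1 and 2 and NaOH roots replicates 1 and 2, with adjusted p up to 0.239.

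The HSF model Sb03g033750 had its highest fold with ABA in roots and its lowest with ABA in shoots. It had 131, 107 and 76.7 RPKM in ABA roots, against 2.67, 2.46 and 6.25 in NaOH roots. In ABA shoots it had 15.6, 7.01 and 8.84 RPKM, against 8.85, 2.15 and 3.85 in NaOH shoots. The root groups were far apart (log2 4.68 ± 0.61) and the shoot groups overlapped (log2 0.99 ± 0.57, adjusted p = 0.231). Without NaOH shoots replicate 1 the ABA shoot value was 1.66 (adjusted p = 0.0689). It had 22.0, 16.9 and 29.3 RPKM in PEG roots, against 5.60, 5.78 and 4.83 in H2O roots. In PEG shoots it had 25.4, 10.1 and 37.2 RPKM, against 6.02, 0.999 and 2.72 in H2O shoots. Both PEG groups lay above their controls, by 2.06 ± 0.56 in roots and 2.71 ± 0.59 in shoots on the log2 scale. The call in PEG roots was lost in 8 of 19 alternatives, with adjusted p up to 0.303: on deposited bases, without replicate 1 or 3, and without any 1 of PEG roots replicates 1 and 3 and the 3 H2O root libraries. Without replicate 3 the call in PEG shoots was lost (adjusted p = 0.152), and without H2O shoots replicate 1 the log2 fold change in PEG shoots was 3.498 (adjusted p = 0.00212). Replicate 2 was the lowest of this model in each of the 4 shoot groups, and in H2O shoots it rested on 12 reads.

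The HSF model Sb10g021800 had the lowest mean of the members in each control group. It had 70.9, 66.95 and 47.4 RPKM in ABA roots, against 1.88, 1.71 and 2.47 in NaOH roots. ABA shoots had 7.41, 7.19 and 5.51 RPKM, against 0.734, 0.887 and 0.609 in NaOH shoots. Both differences were many times the spread between libraries, with log2 fold changes of 4.85 ± 0.45 in roots and 3.03 ± 0.48 in shoots. The root value and the 4.68 ± 0.61 of Sb03g033750 differed by less than their SE, and their order turned without replicate 3 or without NaOH roots replicate 3 alone. It had 5.54, 4.47 and 14.4 RPKM in PEG roots, against 1.98, 2.00 and 3.10 in H2O roots. PEG shoots had 9.91, 6.44 and 14.9 RPKM, against 0.285, 1.27 and 0.546 in H2O shoots. The groups did not overlap, and the fitted log2 fold changes were 1.75 ± 0.42 in PEG roots and 3.73 ± 0.49 in PEG shoots. PEG roots replicate 3 stood far above the other PEG root libraries, and without it the root value was 1.02 and was not called (adjusted p = 0.137). That call was also lost without replicate 1 or 3, or without H2O roots replicate 1 or 2. The PEG shoot value was 4.34 without H2O shoots replicate 2.

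The MYB-related model Sb03g003100 had a higher mean RPKM in shoots than in roots with every treatment, a difference tested in the controls alone. It had 33.4, 22.6 and 20.1 RPKM in ABA roots, against 4.90, 2.62 and 7.03 in NaOH roots. In ABA shoots it had 78.9, 48.5 and 46.4 RPKM, against 21.5, 7.62 and 15.2 in NaOH shoots. Neither ABA group overlapped its control, and the log2 fold changes were 2.29 ± 0.50 in roots and 1.85 ± 0.47 in shoots. It had 10.6, 5.69 and 17.4 RPKM in PEG roots, against 4.42, 5.10 and 6.97 in H2O roots, which overlapped. In PEG shoots it had 57.3, 31.3 and 68.5 RPKM, against 13.9, 5.48 and 16.2 in H2O shoots, which did not. The fitted value in PEG roots, 1.0 ± 0.49, was not called (adjusted p = 0.268), and that in PEG shoots was 1.92 ± 0.48.

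ABA roots gave the largest response in 4 of the members, PEG shoots in the bZIP model and PEG roots in Sb03g003110, whose leading values of 1.5 and 1.45 differed by far less than their SE of 0.47. The lead of ABA roots was also within 1 SE in Sb09g006050 (3.93 against 3.87 in ABA shoots) and Sb03g003100 (2.29 against 1.92 in PEG shoots). PEG roots gave the smallest response in 4 members, the exceptions being Sb03g003110, where it was the largest, and Sb03g033750, where ABA shoots were last. The differences between responses were tested as interactions. The study's choice of the members did not ask for such a difference, but it used the 4 folds that make them up. So these tests are not independent of the choice.

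In roots, ABA raised 3 members by more than PEG did. The difference between the ABA and the PEG response in roots, in log2 units, was 3.10 ± 0.59 for Sb10g021800 (adjusted p = 0.000917), 2.62 ± 0.79 for Sb03g033750 (adjusted p = 0.0267) and 2.25 ± 0.43 for Sb09g006050 (adjusted p = 0.00107). These 3 of 6 members were called, where 12.1% of all tested models were called in either direction. The bZIP model and Sb03g003110 had differences of 0.26 (95% interval -0.50 to 1.01) and -0.05 (-1.42 to 1.32). Sb03g003100 had 1.29 ± 0.69 (adjusted p = 0.238), which was called with the replicate block (1.5, adjusted p = 0.04, within a range of 0.04 to 0.593 over 23 alternatives). The call of Sb09g006050 held in all 23 alternatives, that of Sb10g021800 in all but the fit without replicate 1 (adjusted p = 0.064), and that of Sb03g033750 was lost in 11, with adjusted p up to 0.191: without replicate 1, 2 or 3, on deposited bases, and without any 1 of ABA roots replicate 1, PEG roots replicates 1 and 2, H2O roots replicates 1 and 2 and NaOH roots replicates 1 and 2.

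In shoots, the ABA and PEG responses were not shown to differ for any member. The differences in log2 units ran from -1.72 ± 0.81 for Sb03g033750 (95% interval -3.41 to -0.03, adjusted p = 0.272) to 0.85 ± 0.44 for Sb09g006050 (-0.06 to 1.77, adjusted p = 0.319). So 0 of 6 members were called by edgeR and 0 by DESeq2, with 1 at an unadjusted p under 0.05, where 1.79% of all tested models were called in either direction. Over all 22667 models, 4018 had an unadjusted p under 0.05 and DESeq2 called 722. The value of Sb03g033750 was -2.50 without H2O shoots replicate 1 (adjusted p = 0.125) and -1.05 without NaOH shoots replicate 1 (adjusted p = 0.498). The 95% intervals of Sb03g003110 (-1.31 to 1.47) and Sb03g003100 (-1.44 to 1.30) include differences of 2-fold in either direction.

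Between tissues, the response of Sb03g033750 to ABA was larger in roots by 3.69 ± 0.80 log2 units (95% interval 2.01 to 5.36, adjusted p = 0.00352). This was 1 of 6 members called, where 9.56% of all tested models were called in either direction, and the call was lost in 1 of 22 alternatives, without replicate 1 (2.99, adjusted p = 0.094). Sb10g021800, the other HSF model, had a difference of the same sign, 1.82 ± 0.65 (adjusted p = 0.0689), which passed in 3 of 22 alternatives (DESeq2, limma on RPKM and without replicate 3), with adjusted p of 0.0254 to 0.337. The other members had ABA responses that differed between roots and shoots by 0.07 to 0.44, and for Sb09g006050 the 95% interval was -0.84 to 0.97. With PEG, the sign was turned in 5 of 6 members, which had the smaller response in roots. The largest of these differences were -1.98 ± 0.64 for Sb10g021800 (adjusted p = 0.0734) and -1.33 ± 0.43 for Sb09g006050 (adjusted p = 0.0756). No member was called (0 of 6 by edgeR, 2 at an unadjusted p under 0.05, 2 by DESeq2, with 4.08% of all tested models called in either direction). Over all models, 4980 had an unadjusted p under 0.05 and DESeq2 called 1298. Sb10g021800 was called in 6 of 22 alternatives, with adjusted p of 0.00648 to 0.519: DESeq2 (-1.94), limma on RPKM (-2.25), and without replicate 2 (-2.70), PEG roots replicate 3 (-2.71), PEG shoots replicate 2 (-2.25) or H2O shoots replicate 2 (-2.59). Sb09g006050 was called in 5 of 22, with adjusted p of 0.0202 to 0.296: DESeq2, limma on RPKM, the replicate block (-1.31, adjusted p = 0.0202), the RTA version as a term, and without PEG shoots replicate 1.

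**Figure D3:**
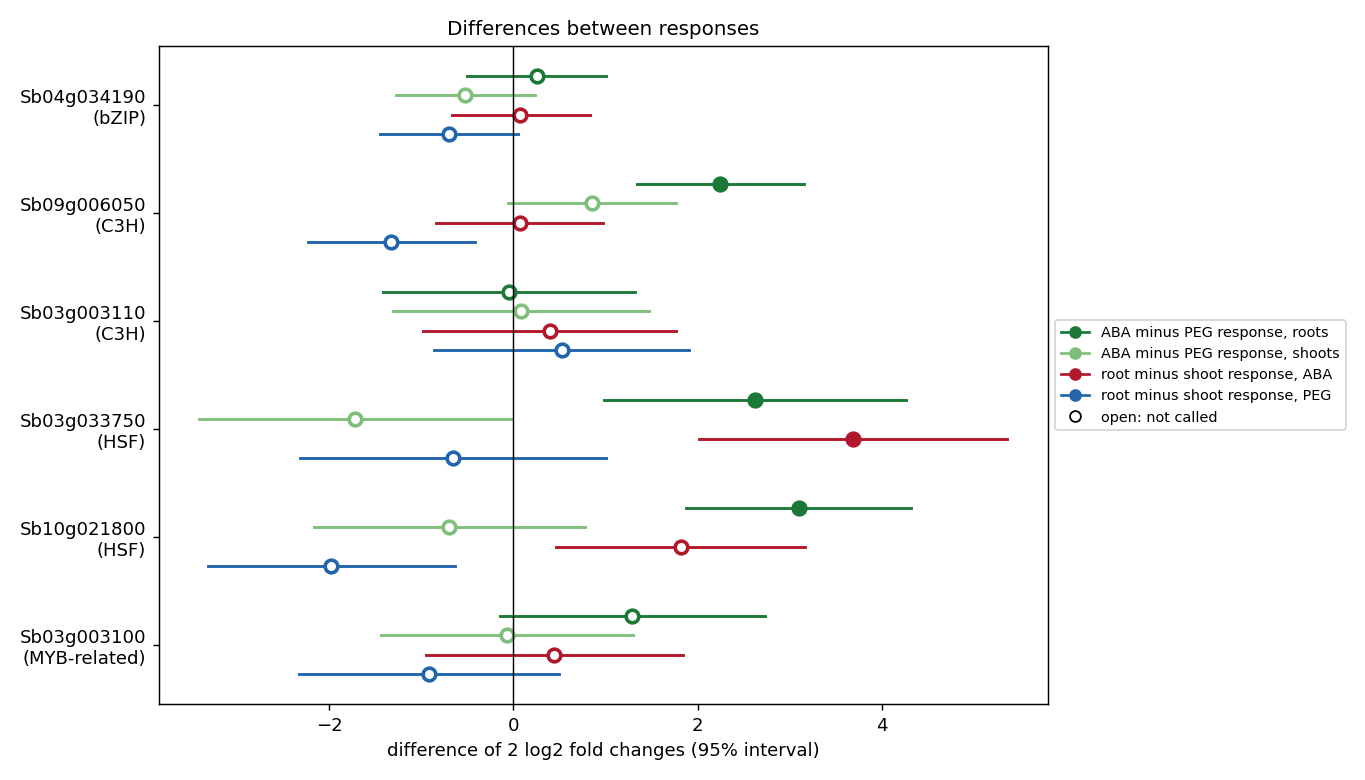
Differences between 2 log2 fold changes of the same member with 95% intervals, filled where called. The ABA minus PEG difference in roots is filled at 2.25, 2.62 and 3.10 for Sb09g006050, Sb03g033750 and Sb10g021800, and the root minus shoot difference with ABA is filled for Sb03g033750 at 3.69.

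The C3H models did not keep one ratio. The RPKM ratio of Sb09g006050 to Sb03g003110 was 3.499 in ABA roots against 0.634 in NaOH roots, 3.12 in ABA shoots against 0.505 in NaOH shoots, and 2.94 in PEG shoots against 0.702 in H2O shoots, but 0.870 in PEG roots against 0.689 in H2O roots (geometric means of 3 libraries). So by these means, which C3H model was the more abundant switched with treatment in 3 of the 4 comparisons. In H2O shoots replicate 2, Sb09g006050 was already the higher, at 6.80 RPKM against 6.35. Averaged over the comparisons, the log2 ratio was higher by 1.87 in treated libraries (exact permutation test over all 160000 assignments within comparisons, two-sided, p = 5e-05, adjusted over 4 ratios 0.0001), in 11 of 12 same-number pairs. Both C3H models were chosen for a rise in these same libraries, so the test is not independent of that choice. It also exchanged labels in roots and shoots separately, although both came from the same plants, in 3 experiments. Its p therefore counts more independent units than there were, and can be too small. For the HSF pair the ratio of Sb10g021800 to Sb03g033750 was 0.593 in ABA roots against 0.588 in NaOH roots, whereas in shoots it was 0.675 with ABA against 0.194 with NaOH. Its mean difference over the 4 comparisons, 0.55 log2 units, did not pass the exact permutation test (p = 0.195, adjusted 0.195, higher in 6 of 12 pairs), which does not show that the HSF models moved alike.

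Sb03g003100 and Sb03g003110 are adjacent on chromosome 3, MYB-related then C3H, with 18007 bases between them and no other model in between. On chromosome 9 the C3H model Sb09g006050 is followed, after 93302 bases and 1 model with 0 reads in all 24 libraries (Sb09g006055), by Sb09g006060 (chr9:8827278-8829158), which the study's table also classes as MYB-related. The chromosome 9 partner is no member, but it had 73.4, 87.8 and 79.3 RPKM in ABA roots, against 35.2, 32.7 and 29.6 in NaOH roots. ABA shoots had 46.4, 39.0 and 53.4 RPKM, against 16.7, 5.11 and 11.3 in NaOH shoots. Both ABA differences were called, with log2 fold changes of 1.24 ± 0.26 and 1.96 ± 0.27. In PEG roots it had 27.6, 31.4 and 27.6 RPKM, against 33.5, 33.1 and 39.5 in H2O roots (log2 -0.32 ± 0.25, adjusted p = 0.572), all 3 below the lowest H2O library. PEG shoots had 21.9, 25.9 and 28.4 RPKM, against 14.2, 9.63 and 13.3 in H2O shoots (log2 0.82 ± 0.26, adjusted p = 0.0358), which was short of a fold of 2.

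The adjacent models on chromosome 3 did not keep one ratio. The log2 ratio of Sb03g003100 to Sb03g003110 was -2.41 to -1.01 over the 12 root libraries and -0.21 to 2.24 over the 12 shoot libraries, lower in roots in 12 of 12 pairs from the same plants. By treatment, the mean log2 ratio was -1.34 ± 0.29 in ABA roots against -2.12 ± 0.45 in NaOH roots, 0.98 ± 0.27 in ABA shoots against 0.28 ± 0.40 in NaOH shoots, and 1.33 ± 0.80 in PEG shoots against 0.25 ± 0.48 in H2O shoots (SD, n = 3). It went the other way in PEG roots, -2.09 ± 0.28 against -1.62 ± 0.27 in H2O roots. Averaged over the 4 comparisons the ratio was higher by 0.52 in treated libraries (exact permutation test, p = 0.0219, adjusted 0.0292, higher in 10 of 12 pairs), and leaving out replicate 1, 2 or 3 ended the call, with adjusted p of 0.128, 0.0694 and 0.0802. The limits of the test of the C3H ratio hold here too. Both models were chosen for a rise, and the root and shoot pairs of a number share plants, so p can be too small. The log2 ratio of Sb09g006060 to Sb09g006050 differed by -2.18 between treated and control libraries, and was lower in 12 of 12 pairs. Sb09g006050 was chosen for its rise and Sb09g006060 was not, so this ratio is a description with no test. Of a single comparison with 3 libraries against 3, no exact p can be below 0.1.

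**Figure D4:**
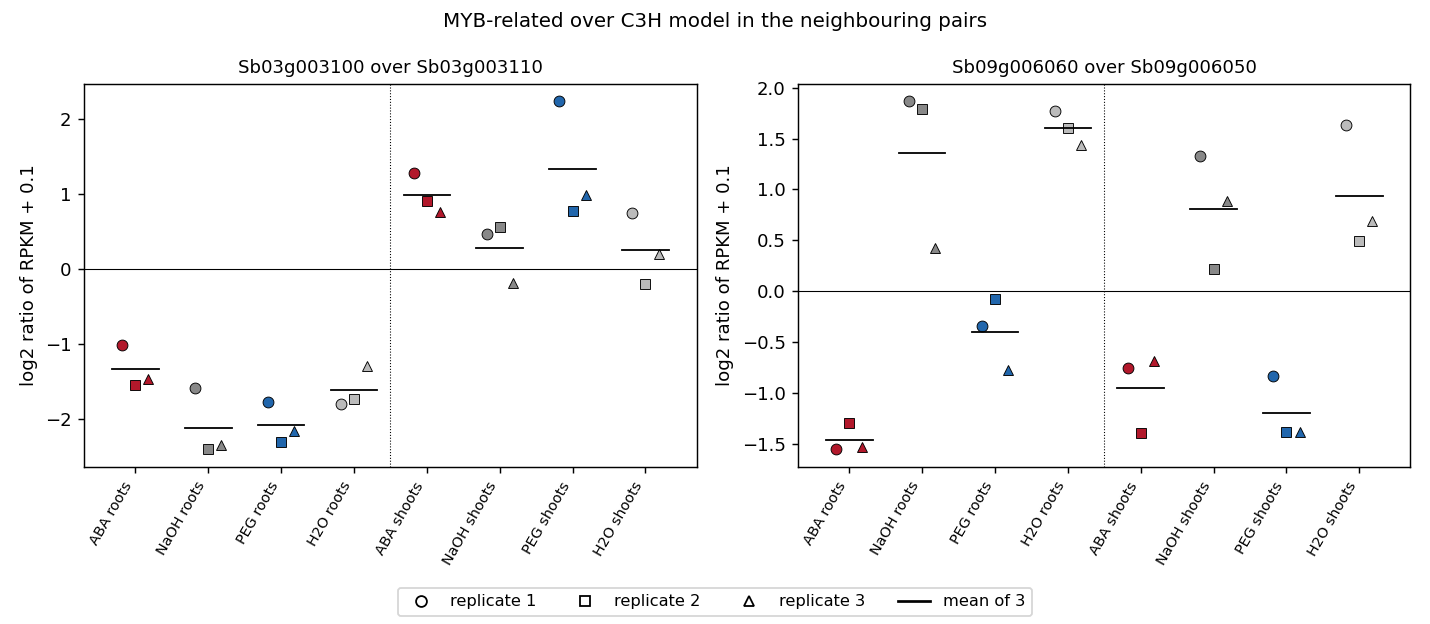
Log2 ratio of the MYB-related to the C3H model in each library for the chromosome 3 pair (left) and the chromosome 9 pair (right), with symbols for replicates and bars at means. The left ratio separates roots (at most -1.01) from shoots (at least -0.21), and the right one separates each treated group from its control.

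The other flanking models did not all move with the members. Besides members, 10 models lie directly before or after one, and 7 were tested. In ABA roots 2 of the 7 were called higher (5.44% of all tested models) and 2 lower (8.21%), and in PEG roots 1 was called higher (2.03%). Sb10g021810, annotated as protodermal factor-like and 73884 bases after Sb10g021800, had 19.4, 21.9 and 17.2 RPKM in ABA roots, against 0.175, 0.237 and 0.113 in NaOH roots (log2 6.75 ± 0.31). In shoots it was high throughout, with 348, 429 and 370.0 RPKM with ABA against 298, 322 and 332 with NaOH, and was not called. Sb03g033755, next to the HSF model Sb03g033750, had 7.16, 7.16 and 7.25 RPKM in ABA roots, against 1.78, 2.84 and 1.49 in NaOH roots (log2 1.76 ± 0.28). Sb04g034180, next to the bZIP model, was lower, with 36.2, 31.9 and 25.5 RPKM in ABA roots against 59.2, 56.4 and 82.1 in NaOH roots (log2 -1.15 ± 0.40). Sb03g003120, annotated as a P-type Myb protein and next to Sb03g003110, went in opposite directions in roots. It had 13.3, 10.3 and 13.0 RPKM in ABA roots against 18.6, 16.9 and 47.5 in NaOH roots (log2 -1.26 ± 0.37, adjusted p = 0.0121), and 58.1, 42.6 and 52.2 in PEG roots against 21.1, 20.0 and 24.3 in H2O roots (log2 1.2 ± 0.36, adjusted p = 0.0482).

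Over the 24 libraries, the members fell into no single profile. As a description of libraries that share treatments, tissues and experiments, Pearson's r of log2(RPKM + 1) was 0.93 between Sb09g006050 and Sb10g021800 and 0.92 between the HSF models. It was 0.86 between the bZIP and the MYB-related model, and 0.37 between the adjacent Sb03g003100 and Sb03g003110. The tested models most like each member over the 24 libraries were Sb04g033380 (r = 0.95, a homeobox HD-ZIP model) and Sb07g028710 (0.94, zinc finger family-like) for Sb04g034190, and Sb09g027600 (0.97) and Sb04g035130 (0.96), both uncharacterized, for Sb09g006050. For Sb03g003110 they were Sb10g004580 (0.91, an AP2-EREBP model) and Sb01g018180 (0.89, epoxide hydrolase), and 1 model in all reached 0.9. For Sb03g033750 they were Sb08g002950 (0.94) and Sb05g017940 (0.93, HVA22-like, a family known as ABA-induced in barley). For Sb10g021800 they were Sb01g047270 (0.98, xyloglucan galactosyltransferase-like) and Sb04g032300 (0.97, mechanosensitive ion channel-like), and 113 models reached 0.9. For Sb03g003100 they were Sb09g022410-1 (0.95) and Sb09g022010 (0.95).

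Other models of the same families gave a setting for these values. They were taken from the study's tables of responding genes, a list chosen on these same libraries and held here in part, so their counts are no independent evidence of direction. Of 8 other HSF models, 4 were called higher in ABA roots (5.44% of all tested models), 2 in ABA shoots (3.16%), 0 in PEG roots (2.03%) and 2 in PEG shoots (2.73%). Their median log2 fold changes were 1.07, 0.46, 0.13 and 0.50 in that order, and 1 was called lower in PEG shoots (2%). The most abundant of them, Sb04g008300, averaged 265.9 RPKM in ABA roots against 19.4 in NaOH roots (log2 3.71 ± 0.33), and 47.2 in PEG roots against 24.3 in H2O roots (log2 0.93 ± 0.31, adjusted p = 0.071). Heat shock proteins are the chaperones that HSFs are known to drive. Of 15 models annotated as such, 8, 9, 6 and 10 were called higher in ABA roots, ABA shoots, PEG roots and PEG shoots. The shares over all tested models were 5.44%, 3.16%, 2.03% and 2.73%. None of the 15 was called lower (8.21%, 4.01%, 1.45% and 2% of all tested models), and their medians were 2.86, 2.03, 3.05 and 2.27. Sb03g006870, similar to a small heat shock protein, averaged 105 RPKM in ABA roots against 0.991 in NaOH roots (log2 6.66 ± 0.59) and 16.7 in PEG roots against 1.39 in H2O roots (log2 3.51 ± 0.54). Sb03g039360, similar to heat shock 70 kDa protein, rose with ABA in roots (log2 2.86 ± 0.33) and shoots (2.73 ± 0.33) and with PEG in shoots (3.05 ± 0.33), and was not called in PEG roots (0.62 ± 0.31, adjusted p = 0.272). Sb01g040030 was called higher in shoots alone, with ABA (log2 1.34 ± 0.29) and with PEG (1.03 ± 0.29). Sb03g027330 was called in ABA roots alone (log2 3.99 ± 1.06), with -0.855 ± 0.79 in ABA shoots and -0.596 ± 0.78 in PEG shoots.

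Of 18 other bZIP models, 11 were called higher (5.44% of all tested models) and 6 lower (8.21%) in ABA roots. In ABA shoots 3 were called higher (3.16%) and 5 lower (4.01%). In PEG roots 0 were called in either direction (2.03% higher and 1.45% lower over all tested models). In PEG shoots 3 were called higher (2.73%) and 0 lower (2%). Sb07g015450 averaged 8.94 RPKM in ABA roots against 98.7 in NaOH roots (log2 -3.52 ± 0.26), and Sb10g007090 averaged 92.9 against 10.7 (log2 3.06 ± 0.25), so the family moved both ways. Of 8 other MYB-related models, 2 were called higher in ABA roots and 1 each in ABA shoots and PEG shoots, while 4 were called lower in ABA shoots and 3 in PEG shoots, and Sb04g030510 averaged 1.23 RPKM in ABA shoots against 27.7 in NaOH shoots (log2 -4.59 ± 0.46). The 1 other C3H model, Sb09g002390, was called in ABA shoots alone (log2 1.14 ± 0.25). Of 3 ascorbate peroxidases, the hydrogen peroxide-removing enzymes, Sb02g044060 was lower in ABA roots (log2 -1.24 ± 0.15) and 2 were higher in ABA shoots, of which Sb06g017080 averaged 609 RPKM against 155 in NaOH shoots (log2 1.86 ± 0.19).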

How the data were processed

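Poly-A RNA-Seq libraries of roots and shoots (24 in all, 3 in each of 8 groups) were sequenced by the authors, who trimmed reads to 50 bases, aligned them to the sorghum assembly sbi1 with ELAND_rna and summed them on gene models with CASAVA 1.6. Reads with more than 1 match were left out, so stretches shared between related models add no reads, and strand was not regarded. The raw count that the authors deposited is a count of aligned bases. It was divided by 50 and rounded to give reads. The deposited RPKM of the authors was used for levels and ratios, and the deposited depth, a coverage signal (aligned bases over exon length), for the 2X cutoff. Comparison columns of the authors' own were not used.

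Samples were grouped by their labels. Reads were tested with edgeR 4.0.16 in R 4.3.3 (robust quasi-likelihood fit of all 24 libraries, 8 group means, TMM factors, low-count filter leaving 22667 of 34145 models, Benjamini-Hochberg adjustment within each comparison). Standard errors are the absolute log2 value over the square root of F. The common biological coefficient of variation was 0.2054, which exceeds counting error for all but low levels, such as the 4 to 19 reads of Sb10g021800 in H2O shoots. Log2 ratios of RPKM + 0.1 were tested by exact permutation, and likeness used log2(RPKM + 1). Alternatives were DESeq2 1.42.0, limma 3.58.1 on log2(RPKM + 0.1), DESeq2 size factors, no filter, deposited bases, the RTA version, the 12 libraries of a tissue, no depth cutoff, a common-dispersion exact test, the replicate block, and leaving out each replicate or library. The fit was also run on simulated data. These had the same spread for all models and no effect of experiment or plants, so they differ from the libraries in those respects.

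Each replicate number is a separate hydroponic experiment by the study's methods, so numbers pair the samples. Deviations of same-numbered libraries from their group means correlated by 0.165 on average for ABA and NaOH roots, 0.284 in shoots, 0.124 for PEG and H2O roots and 0.327 in shoots.

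The members and lists were chosen with earlier results of these data known. Named models are the members, the models beside them, Sb09g006060, the 2 models with the highest r to each member, and some of the most abundant models of each list. The concentration of the NaOH control differs between the labels and the study's methods and is not given here. The lists planned by annotated product could not be matched to the reference table, which holds none of these identifiers, so lists from the study's supplementary tables were taken after values had been seen. Of these, members and models that the tables here do not hold were left out.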

Additional observations from a re-analysis of the deposited data

Results flagged for a closer look

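The response of 3 members differed between ABA and PEG in roots by the interaction test: the difference was 3.10 log2 units for Sb10g021800, 2.62 for Sb03g033750 and 2.25 for Sb09g006050. For Sb03g033750 the response to ABA also differed between roots and shoots, by 3.69 log2 units.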

How the results depend on the processing

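Of 72 combinations of a member and a comparison, 44 kept the same call under every alternative run, and no called value changed sign. The counts of members that moved by over 1.5 times were these. In PEG roots 3 of 6 were called in the analysis reported, and 6 by the common-dispersion exact test, which called 6 of 6 in each of the 4 treatment comparisons. The study chose its responding models by a test of this kind with the same cutoffs. These counts of 6 of 6 are therefore no independent evidence. Between NaOH roots and NaOH shoots 1 was called, and 3 with limma on RPKM. Between H2O roots and H2O shoots 2 were called, and 1 with DESeq2 size factors, without the low-count filter, with the replicate block or with limma on RPKM. For the ABA response in roots against shoots 1 was called, and 2 with DESeq2 or limma on RPKM. For the PEG response in roots against shoots 0 were called, 2 with DESeq2 or limma on RPKM, and 1 with the replicate block or the RTA version as a term. The cause was not tested. The replicate block changed no other count by that much.

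Leaving out a replicate number or a library gave counts of 4 to 6 in ABA roots, 2 to 4 in ABA shoots, 0 to 5 in PEG roots, 3 to 5 in PEG shoots, 0 to 3 between H2O roots and H2O shoots, 1 between NaOH roots and NaOH shoots, 1 to 3 for ABA against PEG in roots, 0 to 2 for ABA between tissues and 0 to 2 for PEG between tissues. The other counts stayed at 0. The ratio of Sb03g003100 to Sb03g003110 was higher by 0.42 to 0.58 without a replicate and by 0.52 with the replicate block (exact sign flips over 12 pairs, p = 0.0254), and the ratios of Sb09g006050 to Sb03g003110 and of Sb10g021800 to Sb03g033750 kept their side of the threshold. The 12 pairs come from 3 experiments, with roots and shoots of the same plants, so they are not independent units. Depth limits the low levels: Sb10g021800 had 4 to 19 reads in each control shoot library.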
